A study of Mus musculus with 4 samples.

Results

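Cxcl12 and Kitl, the genes for a chemokine and a growth factor that marrow stromal cells supply to blood stem cells, were followed across the cells of mouse limb bone marrow. Both were found by symbol in the gene list of the deposited matrices, 2 of 32285 genes. The cells came from 12-day-old C57BL/6 mice, 3 controls and 3 carrying Prx1-cre with floxed alleles of Mettl3 (Prx1-cre;Mettl3-fl/fl). Viable cells without surface CD45 or Ter119, that is without the common blood and red cell antigens, were sorted for 10x Genomics 3′ libraries. Prx1-cre acts in limb bud mesenchyme and its descendants, which include marrow stroma and bone but not endothelium or blood, and Mettl3 encodes the enzyme that places N6-methyladenosine on RNA. There were 2 control and 2 mutant libraries. Mutant 2 is labelled simply as mutant, the alleles of the controls are not stated in the labels, and nothing ties a mouse to a library. The p-values therefore measure how far the libraries spread, which may in part be technical. Those of the genotype fits rest mostly on a spread shared across genes.

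CXCL12 is a secreted chemokine that keeps stem and progenitor cells in the marrow through the receptor CXCR4, while ACKR3 binds and removes it. KITL, also called stem cell factor, exists in membrane-bound and shed forms and activates the receptor tyrosine kinase KIT on stem, erythroid and mast cells. In adult marrow the main source of both is the perivascular stromal cell that carries the leptin receptor (Lepr), and endothelial cells are a further source of Kitl.

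Cxcl12 (ENSMUSG00000061353) lies on the plus strand of mm10 chromosome 6 from 117168535 to 117181367, and Kitl (ENSMUSG00000019966) on the plus strand of chromosome 10 from 100015630 to 100100416. The sequence before the start of each gene is shown because both transcripts were low together in the mutant libraries. Bases come from RefSeq on GRCm38.p6. For Cxcl12 the 250 bases at chr6:117168285-117168534 are given, and for Kitl a stretch of 30 bases at chr10:100015788-100015817 that lies in the first exon of a longer transcript. Capitals mark the GC box CCGCCC, searched on both strands, in the first and the TATA box TATAAA in the second.

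Cxcl12: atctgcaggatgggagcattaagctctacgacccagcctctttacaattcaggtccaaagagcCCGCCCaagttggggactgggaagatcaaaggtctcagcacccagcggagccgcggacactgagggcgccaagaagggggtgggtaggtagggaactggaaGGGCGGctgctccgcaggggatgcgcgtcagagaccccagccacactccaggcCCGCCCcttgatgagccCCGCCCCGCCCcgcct
Kitl: gggagctgTATAAAaagcgctggcggcgca

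The Cxcl12 window held 5 GC boxes, the last pair sharing 1 base, and the Kitl window held 3, against 32.7% of 32851 RefSeq promoter windows of the same length with at least 1. A TATA box stood 25 bases before the Kitl start used by RefSeq, and 12.4% of promoters held one. No match to the forkhead motif GTAAACA (3.17% of promoters), to the palindromic EBF motif (0.779%) or to the hypoxia response core ACGTG (16.6%) was found in either window. These are matches of letters and no measure of binding.

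The libraries control 1, control 2, mutant 1 and mutant 2 held 116863081, 114143361, 47390414 and 81890483 UMIs. A cell was kept when it had 1000 UMIs or more, 500 genes or more and no more than 10% mitochondrial UMIs, which left 5808, 3635, 2628 and 4587 cells in that order with a median of 10186 to 24080 UMIs. Cells were sorted into classes by their marker UMIs: a gate was passed with at least 3 UMIs from at least 2 genes of its list, and neither Cxcl12 nor Kitl is in a list. Cell numbers differed strongly between libraries. Cells of the stromal gate (Lepr, Adipoq, Lpl, Chrdl1, Ebf3, Gdpd2, Kng1), with or without the bone gate, numbered 942, 50, 198 and 60. Cells that also passed a mural, fibroblast, chondrocyte, endothelial, blood, Schwann or muscle gate are not among them, here and below. Cells that passed the bone gate alone (led by Ibsp, Sp7 and Dmp1) numbered 238, 40, 1653 and 1186. Mettl3 was measured in mesenchyme at 10.9 and 12 CPM (UMIs scaled to 1000000 of the class) in the control libraries, against 4.0 and 6.54 CPM in the mutant ones. Reads from the 3′ end check a deletion only where it removes that end, and no source used here says which exons are floxed.

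In control marrow both transcripts were concentrated in stromal cells. Cells passing the stromal gate alone held Cxcl12 at 21601 CPM in control 1 and 18047 CPM in control 2, and those that also passed the bone gate at 14527 and 17146 CPM. Bone cells held 37.3 and 20.1 CPM. The 2 stromal classes thus stood far above bone in both libraries, with no overlap. In a fit of the class sums of the controls, edgeR's quasi-likelihood test put stromal above bone by 9.04 ± 0.82 log2 units for Cxcl12 (SE, n = 2 libraries, Benjamini-Hochberg adjusted p = 8.29e-08). In that contrast 28.1% of 11517 genes were called.

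Kitl likewise stood far above bone in both stromal classes, but the order of these 2 classes differed between the libraries. Its level was 2730 and 2562 CPM in cells of the stromal gate alone, 2105 and 2680 CPM in cells of both gates, and 16.3 and 14.5 CPM in bone cells. Stromal cells stood above bone by 6.77 ± 0.57 log2 units (edgeR adjusted p = 7.73e-08, n = 2 libraries). The cells near the top were alike for both genes: a median stromal-gate-only cell of control 1 held 21658 CPM of Cxcl12 and 2534 CPM of Kitl, and 99.0% of these cells reached 2000 CPM of Cxcl12.

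Endothelial cells held less of both than stromal cells. A wide endothelial class was used for them, chosen after the data were seen: cells passing the endothelial gate and no bone, chondrocyte, fibroblast, pan-mesenchymal or blood gate, whatever their stromal or mural gate. In this class the mural gate genes Kcnj8 and Abcc9 were found in 392 and 461 of 477 cells in control 2. In mutant 2 they were found in 358 and 609 of 812 cells. The stromal gate genes Lpl and Lepr were found in 350 and 133 of the cells of control 2. The pericyte and smooth muscle genes Rgs5, Myh11 and Higd1b were found in 3, 0 and 0 of the cells of control 2. The class held 26, 477, 46 and 812 cells in control 1, control 2, mutant 1 and mutant 2, of which 16, 394, 9 and 329 also passed a stromal or mural gate. Its Cxcl12 level was 398 CPM in control 1, where 48 of 61 UMIs came from 1 cell, and 36.6 CPM in control 2. Its Kitl level was 150 and 39.1 CPM.

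Stromal cells exceeded this class by 7.59 ± 0.77 log2 units for Cxcl12 (edgeR adjusted p = 2.28e-07) and 5.203 ± 0.52 for Kitl (3.89e-07), in a contrast that called 24.6% of 11517 genes. Bone and endothelial cells lay closer to each other. The difference of bone minus endothelial cells was -1.45 ± 0.68 for Cxcl12 and did not pass (edgeR adjusted p = 0.114), while that for Kitl was -1.57 ± 0.54 and passed (0.0320), with 31.8% of genes called. The Kitl call was lost with DESeq2 (adjusted p = 0.151). The remaining mesenchymal cells, outside the stromal, bone and chondrocyte classes, had no fixed place in the order. They can include cells that passed the stromal gate together with a mural, fibroblast or chondrocyte gate. Their Cxcl12 was 5546 CPM in control 1 and 8.01 CPM in control 2, and their Kitl 743 and 56.0 CPM. In control 1, 55 of these 114 cells reached 2000 CPM of Cxcl12, against 0 of 15 in control 2.

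Within the endothelium the level of both transcripts in the class sums was higher in arterial cells. Arterial cells, counted by Gja4, Gja5, Sox17 and related genes, numbered 6, 8, 16 and 30 in control 1, control 2, mutant 1 and mutant 2, and sinusoidal cells, counted by Stab2, Flt4, Gpr182 and related genes, 17, 467, 19 and 702. Cxcl12 was 1729, 315, 258 and 746 CPM in arterial cells and 28.7, 30.02, 0 and 3.72 CPM in sinusoidal cells. Each library was thus higher in the sum of its arterial cells. The median arterial cell held 160 CPM in control 1 and 0 in control 2, mutant 1 and mutant 2. No Cxcl12 UMI was found in 50%, 62.5%, 75% and 76.7% of arterial cells in control 1, control 2, mutant 1 and mutant 2. Fitted over the 4 libraries, the arterial excess was 5.56 ± 0.59 log2 units (edgeR adjusted p = 7.35e-06), where 8.95% of 3152 genes were called. Single cells weighed heavily here: 1 cell held 48 of 54 arterial UMIs in control 1, and 1 cell 136 of 198 in mutant 2. These cells stood at 32021 and 16953 CPM, near the level of control stromal cells, and whether they were stromal was not tested. Without the cell with most Cxcl12 in each library the excess was 4.43 (edgeR adjusted p = 0.000512, an alternative added after seeing the data). Kitl was 608, 336, 405 and 302 CPM in arterial cells and 0, 32.1, 137 and 52.9 CPM in sinusoidal cells, an excess of 2.79 ± 0.36 (edgeR adjusted p = 3.83e-05). The level is not the amount: the far more numerous sinusoidal cells held 117 of the 146 endothelial Cxcl12 UMIs and 125 of the 156 Kitl UMIs of control 2, and 398 of the 520 Kitl UMIs of mutant 2.

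Blood cells held close to none of either transcript. Erythroid cells, the class used as background, had Cxcl12 at 9.55 CPM in control 1 and 0.557, 0.733 and 0.627 CPM in control 2, mutant 1 and mutant 2. Kitl in them was 0.624, 0.081, 0 and 0.285 CPM. Control 1 is the library richest in stromal cells, and its barcodes of 10 to 100 UMIs, a sample of RNA free in the droplets, held Cxcl12 at 1549 CPM against 34.7 CPM in control 2 and 30.7 CPM in mutant 2. The matrix of mutant 1 holds called barcodes with at least 501 UMIs, so the free RNA of that library was not measured. Bone cells stood above erythroid cells of the same control libraries by 3.36 ± 0.67 log2 units for Cxcl12 (edgeR adjusted p = 0.000205) and 5.75 ± 0.57 for Kitl (5.49e-08), with 60.2% of genes called. The part of free RNA in the low levels of bone and sinusoidal cells was not tested.

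**Figure D1:**
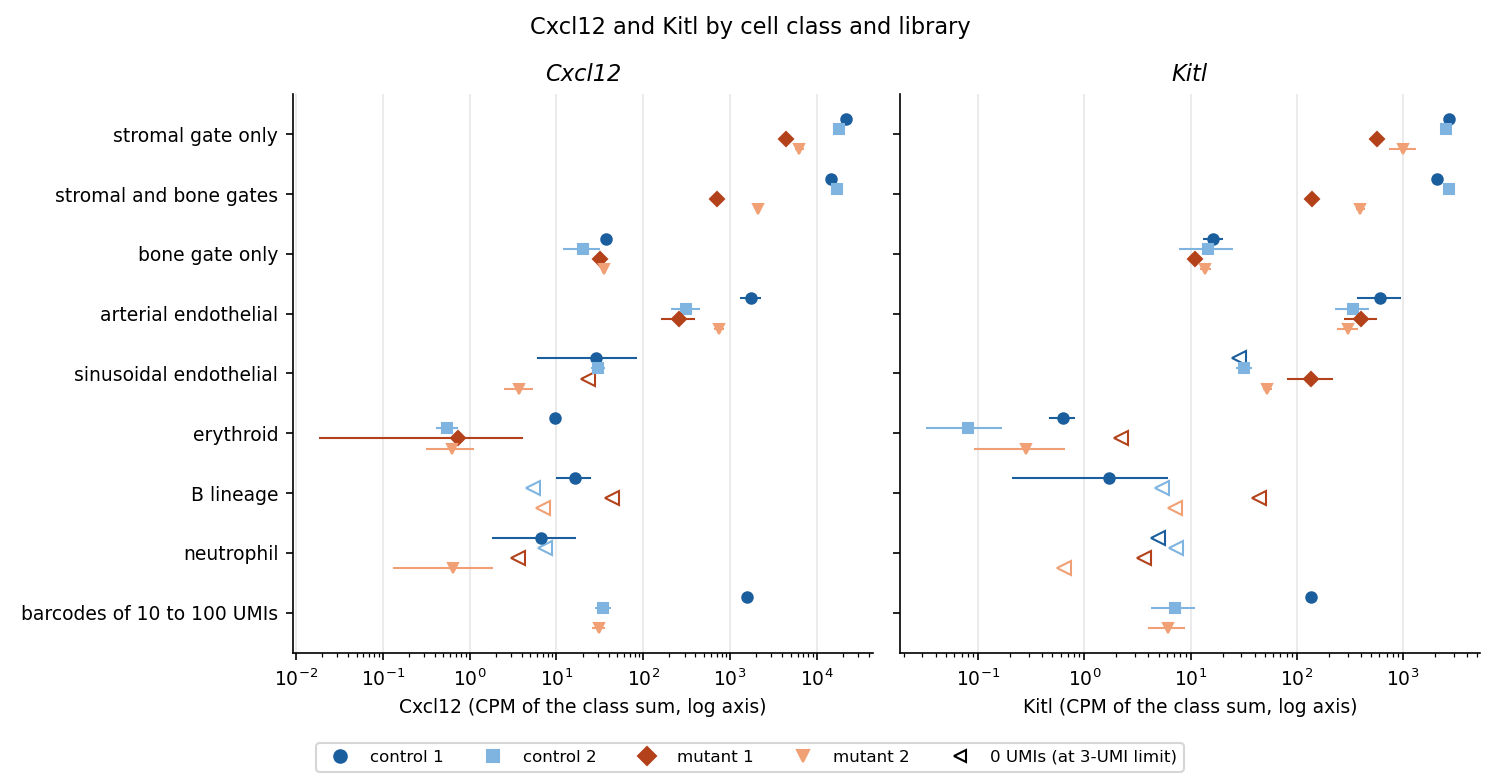
Level of Cxcl12 (left) and Kitl (right) in CPM on a log axis for 9 classes; each symbol is 1 library and its bar the exact 95% Poisson interval, which covers counting error only. Open triangles are classes with 0 UMIs, drawn at the limit of 3 UMIs. Both controls lie at 14527 CPM of Cxcl12 or above in the stromal classes, and all 4 libraries lie between 20.1 and 37.3 CPM in bone.

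In mutant mesenchyme both transcripts were lower than in controls. Mesenchyme, the sum of all mesenchymal gates, held Cxcl12 at 9797 and 4159 CPM in the control libraries, against 122 and 115 CPM in the mutant libraries (6978 ± 3987 against 119 ± 5.16, SD, n = 2). The Kitl level was 1286 and 626 CPM in controls, against 26.4 and 26.9 CPM in mutants. The genotypes did not overlap for either gene. With processing batch and genotype as terms, Cxcl12 fell by 5.43 ± 0.25 log2 units, 43.1-fold (edgeR adjusted p = 1.78e-10), and Kitl fell by 4.76 ± 0.24, 27.0-fold (3.17e-10). In this comparison 31.5% of 14099 genes were called, 15.6% as lower, and 2036 genes in place of 4445 without the batch term. The make-up of the mesenchyme moved as well: cells of the stromal gate were 72.4% and 45.05% of mesenchymal cells in controls and 9.15% and 4.24% in mutants.

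The fraction of mesenchymal cells with a transcript was compared after each cell had been thinned to 1000 UMIs. A Cxcl12 UMI was then found in 76.9% and 46.8% of control cells and in 7.76% and 6.29% of mutant cells, and a Kitl UMI in 65.0% and 37.8% against 3.14% and 2.69%. Without thinning the shares were 83.6%, 54.0%, 21.9% and 18.2% for Cxcl12 and 78.6%, 55.9%, 15.1% and 14.2% for Kitl. Erythroid cells of the same libraries, thinned alike, gave 1.67%, 0.038%, 0% and 0.248% for Cxcl12, the 0 of 89 cells in mutant 1 allowing up to 3.37%. The mean share differed by -54.8 percentage points for Cxcl12 and -48.5 for Kitl. The exact two-sided permutation p was 0.333 for each, the smallest that 6 splits of 4 libraries can give.

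Cells of the stromal gate that were present in mutants held less of both transcripts. Among cells of the stromal gate alone the Cxcl12 level was 4364 CPM in the 28 cells of mutant 1 and 6294 CPM in the 5 cells of mutant 2, against 21601 and 18047 CPM in controls. Kitl there was 574 and 996 CPM in mutants. With only 5 cells in mutant 2 this class was not tested. Cells passing both gates differed more widely, with Cxcl12 at 715 and 2105 CPM and Kitl at 138 and 397 CPM in mutants, against 14527 and 17146 CPM of Cxcl12 in controls.

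Over all cells of the stromal gate, a class joined after the data were seen, Cxcl12 was 19459 and 17732 CPM in controls, against 1020 and 2313 CPM in mutants. Kitl was 2540 and 2603 CPM in controls, against 174 and 427 CPM in mutants. Control and mutant libraries did not overlap. Cxcl12 fell by 3.33 ± 0.30 log2 units (edgeR adjusted p = 2.15e-05) and Kitl fell by 2.98 ± 0.28 (2.91e-05, n = 2 libraries per genotype), in a comparison that called 33.7% of 10970 genes. The make-up of the class differed. Cells that also passed the bone gate were 208 of 942 and 17 of 50 in controls. In mutants they were 170 of 198 and 55 of 60. Spp1, a bone matrix gene, rose by 3.45 ± 0.24 in the same fit (edgeR adjusted p = 5.37e-06), and by 2.27 to 4.46 without 1 library. It also rose by 4.04 ± 0.29 in the wide endothelial class (1.58e-13), which holds no bone-gated cell. The Spp1 rise was thus not particular to the stromal gate, and the part of free RNA in it was not tested. Within batches the log2 CPM ratio of mutant to control was -4.25 and -2.94 for Cxcl12 in the joined class, against -2.31 and -1.52 in cells of the stromal gate alone. Genes of the gate itself were also low in the mutant cells of the joined class. Lepr was 1113 and 973 CPM in controls, against 122 and 93.5 CPM in mutants. Adipoq was 2077 and 1733 CPM in controls, against 39.7 and 86.2 CPM in mutants. Where gate markers had to make up 0.05% of the UMIs of a cell, the Cxcl12 difference was -2.01 and the Kitl difference -1.82.

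In bone cells neither transcript passed the test. Cxcl12 was 37.3 and 20.1 CPM in controls, against 31.5 and 35.3 CPM in mutants, the mutant values lying between the control values. The log2 difference was -0.03 ± 0.25 (edgeR adjusted p = 0.955). Kitl was 16.3 and 14.5 CPM in controls, against 11.1 and 13.8 CPM in mutants, -0.55 ± 0.28 (0.150), the 2 mutants lying below both controls. In the bone comparison 21.9% of 12632 genes were called, and 918 in place of 2767 genes without the batch term. These levels are low: 85.5% and 84.8% of mutant bone cells held no Cxcl12 UMI. A few bone-gated mutant cells held far more, with a highest value of 6665 CPM in mutant 1 and 3593 CPM in mutant 2.

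In the wide endothelial class the genotype values rested on single libraries. Cxcl12 was 398 and 36.6 CPM in controls, against 82.5 and 28.4 CPM in mutants. The fitted difference was -1.04 ± 0.28 (edgeR adjusted p = 0.0216, with 4.19% of 10483 genes called), but it was 0.29 without control 1 (adjusted p = 1), -3.14 without control 2 (0.578) and -0.99 without mutant 2 (0.759). Without mutant 1 it passed, at -2.45 (1.64e-07). Control 1 had 26 cells in the class. Kitl was 150 and 39.1 CPM in controls, against 251 and 64.7 CPM in mutants, a difference of 0.73 ± 0.23 that did not pass (0.0657). Each mutant library was above the control library of its batch, by 0.74 and 0.73 log2 units in the CPM. Over the 4 fits without 1 library the Kitl difference ran from -0.10, without control 2, to 1.91, without mutant 2. The sorted endothelium as first gated left 10 cells in control 1 and was not tested.

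Sinusoidal cells of control 2 and mutant 2, 467 and 702 cells, allowed a closer look without a test. Cxcl12 was 30.02 CPM (95% Poisson interval 24.8 to 36.0) in control 2 and 3.72 CPM (2.47 to 5.38) in mutant 2, and Kitl 32.1 CPM (26.7 to 38.2) and 52.9 CPM (47.8 to 58.4). A Cxcl12 UMI was seen in 9.21% of the cells in control 2 and 2.71% in mutant 2, and in 2.36% and 0.712% after thinning. The barcodes of 10 to 100 UMIs in these libraries stood at 34.7 and 30.7 CPM of Cxcl12, the first near the sinusoidal level of control 2. The part of free RNA in the sinusoidal levels was not tested. In the other pair of libraries, 3 UMIs in control 1 and 0 in mutant 1 (a limit of 22.9 CPM) gave no comparison.

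The difference between the genotype effects of bone and endothelial cells was tested itself. Bone minus endothelial came to 1.84 ± 0.43 log2 units for Cxcl12 (edgeR adjusted p = 0.00192, with 3.13% of 12653 genes called) and -1.07 ± 0.45 for Kitl (0.235). The Cxcl12 value was 0.46 (0.918) without control 1 and 1.08 (0.351) without mutant 2, and the Kitl value was -2.10 (0.00323) without mutant 2.

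**Figure D2:**
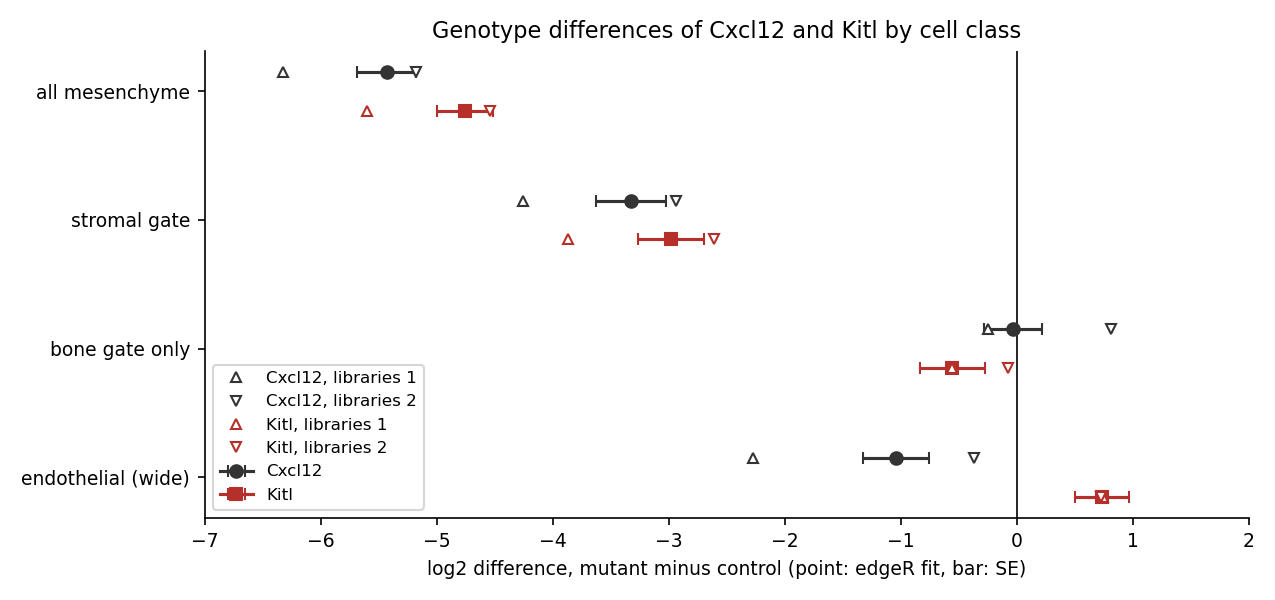
Log2 difference of mutant minus control for Cxcl12 (circles) and Kitl (squares) in 4 classes, with filled points and bars for the edgeR estimate and its SE. Open triangles are the log2 CPM ratio of mutant 1 to control 1 (pointing up) and of mutant 2 to control 2 (pointing down). The edgeR points of both genes lie at -2.98 or below in mesenchyme and the stromal gate, and that of Cxcl12 lies at -0.03 in bone.

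In control stroma Cxcl12 and Kitl were found in the same cells. At 1000 UMIs per cell, 86.2% of cells of the stromal gate alone in control 1 and 84.8% in control 2 held both, 0 cells held Kitl alone, and 96 and 5 cells held Cxcl12 alone. In mutant 1, 35.7% of 28 such cells held both (exact 95% interval 18.6% to 55.9%), and in mutant 2, 4 of 5. Among all mesenchymal cells, Kitl was found in 84.1% of control 1 cells with a Cxcl12 UMI and in 1.33% of those without. In control 2 the shares were 78.8% and 1.69%, in mutant 1 22.0% and 1.55%, and in mutant 2 31.5% and 0.755%. In each library a cell with Cxcl12 therefore held Kitl more often than a cell without, and the share was lower in both mutants than in both controls. The cells with a Cxcl12 UMI were themselves lower in Cxcl12 in mutants. Read from the side of Kitl, the overlap was narrower outside control mesenchyme. Of mesenchymal cells with a Kitl UMI, 841 of 845 and 41 of 42 in controls also held Cxcl12, against 37 of 68 and 28 of 38 in mutants. In bone cells it was 2 of 19 in mutant 1 and 2 of 11 in mutant 2, and in endothelial cells 2 of 14 in control 2 and 5 of 49 in mutant 2.

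**Figure D3:**
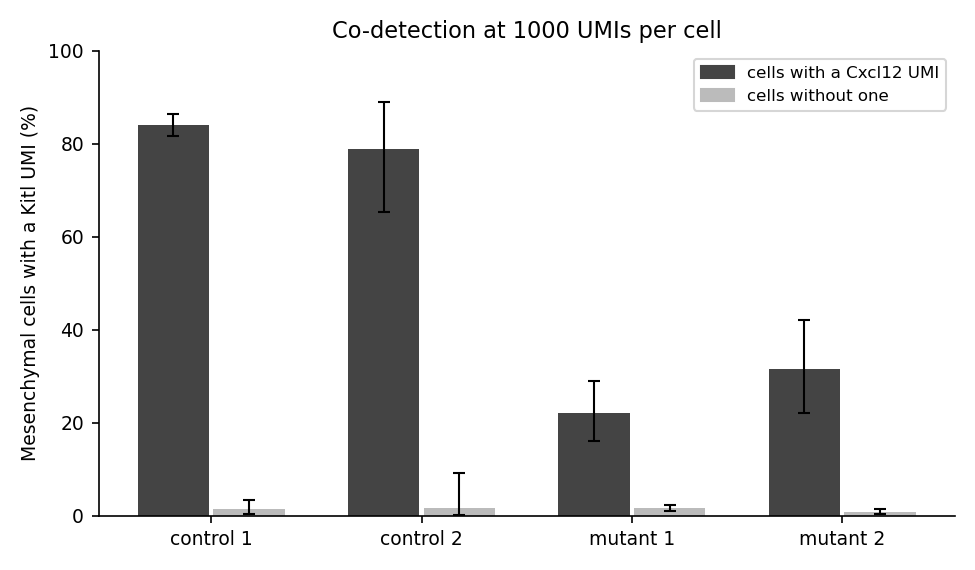
Share of mesenchymal cells with a Kitl UMI at 1000 UMIs per cell, among cells with a Cxcl12 UMI (dark bars) and without one (light bars), in each library. Lines are exact 95% intervals, which cover counting error only. The dark bars stand at 84.1% and 78.8% in controls and 22.0% and 31.5% in mutants, and each light bar stands at 1.69% or lower.

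The balance between the transcripts kept to a narrow range in cells of the stromal gate alone. Kitl made up 11.2%, 12.4%, 11.6% and 13.7% of the sum of Cxcl12 and Kitl UMIs in cells of the stromal gate alone in control 1, control 2, mutant 1 and mutant 2. In cells of both gates the share was 12.7%, 13.5%, 16.2% and 15.9%, and in bone cells 30.4%, 41.9%, 26.0% and 28.2%. In the stromal-gate-only class the mutants lay within or close to the range of the controls while both transcripts were several-fold lower. In endothelial cells the Kitl share was 27.4%, 51.7%, 75.3% and 69.5%. The exact 95% intervals lay above 50% in the mutants (65.2% to 83.6% and 66.1% to 72.8%) and below it in control 1 (18.2% to 38.2%). That of control 2 (45.9% to 57.4%) spanned it. These intervals take UMIs as independent, but 1 cell held 48 of the 61 Cxcl12 UMIs in control 1. In mutant 2, 136 of 228 came from 1 cell. The low share of control 1 thus rests largely on 1 cell. The 2 genes differ in length and capture, so the share serves to compare classes and not to say which gene is the more expressed.

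Most of the Cxcl12 of controls sat in cells of the stromal gate alone, and the largest part of that of mutants in cells of both gates. The kept cells of the control libraries held 138229 and 7059 Cxcl12 UMIs, and those of the mutant libraries 5256 and 3933. Cells of the stromal gate alone held 65.2% and 61.7% of them in controls and 24.5% and 7.55% in mutants. Cells of both gates held 19.1%, 31.5%, 43.97% and 48.4%. Bone cells, at 0.142% and 0.255% in controls, held 19.0% and 19.1% in mutants, where they were also far more numerous (62.9% of kept cells in mutant 1).

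Even in mutants few cells carried most of the Cxcl12. The smallest number of cells that held 50% of the Cxcl12 UMIs was 327 and 17 for the controls, against 39 and 16 for the mutants. Of these, 35 of 39 and 13 of 16 mutant cells were cells of the stromal gate. Cells at or above 2000 CPM of Cxcl12 numbered 1078, 49, 66 and 52, and Kitl was found in 97.9%, 98.0%, 87.9% and 82.7% of them.

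Kitl was spread over more kinds of cell in mutants. Of 1209 Kitl UMIs in mutant 1, 36.8% were in cells of both gates, 29.03% in bone cells and 5.79% in endothelial cells. Of 1527 Kitl UMIs in mutant 2, 34.1% were in endothelial cells, 23.5% in cells of both gates and 19.3% in bone cells. In controls endothelial cells held 0.127% and 12.8%. The cells that held 50% of Kitl numbered 264 and 18 in controls and 64 and 57 in mutants, and 21 of the 57 in mutant 2 were endothelial. The endothelial share moves with the number of endothelial cells that each sort gave, 26, 477, 46 and 812.

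**Figure D4:**
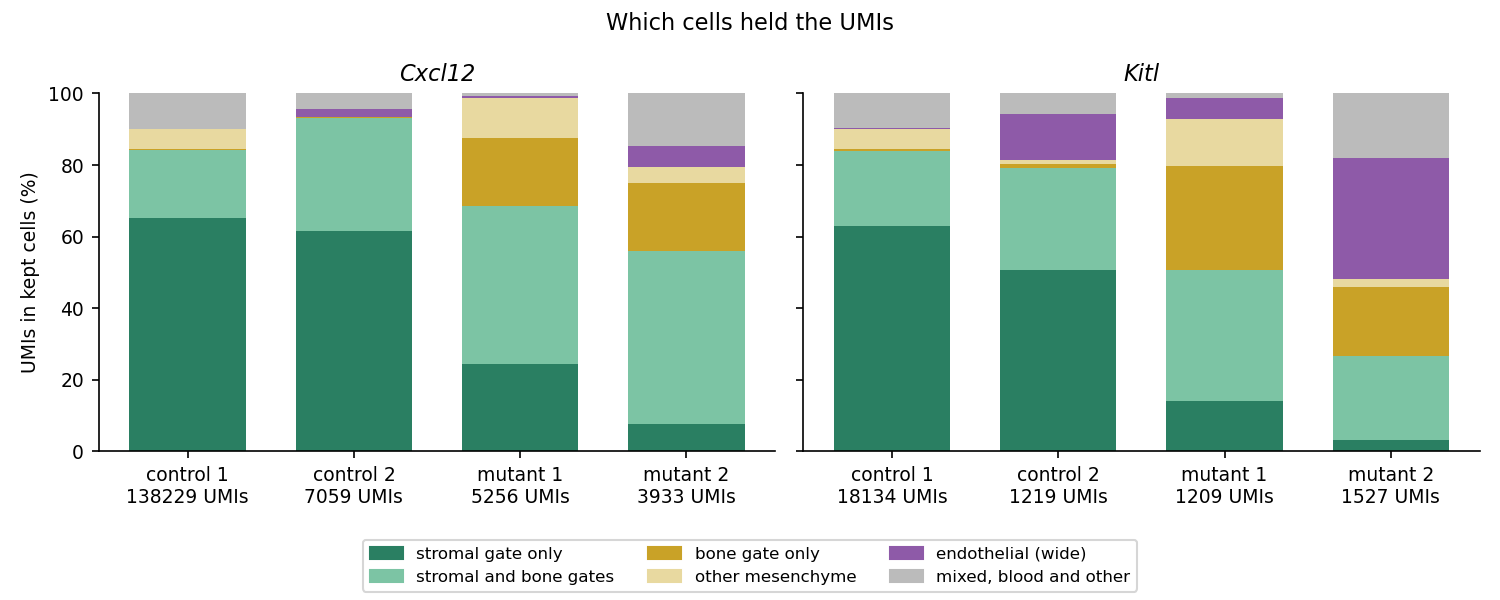
Percentage of the Cxcl12 (left) and Kitl (right) UMIs of kept cells held by each class of cell, 1 bar per library, with the UMI total under each bar. Cells of the stromal gate alone hold most of both in controls. In mutants cells of both gates hold the largest part of Cxcl12, 43.97% and 48.4%, and bone holds 19.0% and 19.1%. The endothelial class holds 34.1% of Kitl in mutant 2.

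Cells were then binned by their own Cxcl12, which the bins fix and which is given as a description. The top bin, 15000 CPM or more, held 848 of 1301 mesenchymal cells in control 1 and 34 of 111 in control 2, but 1 of 2164 in mutant 1 and 0 of 1414 in mutant 2. The bin of 5000 to 15000 CPM held 103, 13, 27 and 19 cells and so allowed cells of like Cxcl12 to be set side by side. Within it, pooled Cxcl12 was still higher in controls (11443 and 12821 CPM) than in mutants (7058 and 7619 CPM). Kitl there was 1682 and 2168 CPM in controls, against 711 and 1416 CPM in mutants.

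Other genes of these cells differed as well. Lepr was 982 and 817 CPM in controls, against 261 and 233 CPM in mutants of that bin, and Adipoq, an adipokine gene of marrow stroma, 972 and 923 against 486 and 331 CPM. Csf1, the growth factor of macrophages and osteoclasts, went the other way, with 290 and 525 CPM in controls, against 837 and 744 CPM in mutants. From 1000 to 5000 CPM of Cxcl12, Kitl was 399.8 CPM in control 1, 411 CPM in mutant 1 and 321 CPM in mutant 2, with 1 cell in control 2. Under 1000 CPM it was 29.2 and 85.95 CPM in controls, against 58.5 and 25.4 CPM in mutants, so that the genotypes overlapped. In cells with no Cxcl12 UMI both controls (13.3 and 13.1 CPM) lay above both mutants (5.59 and 8.62 CPM). These are sums over cells of 1 library each, with no test.

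**Figure D5:**
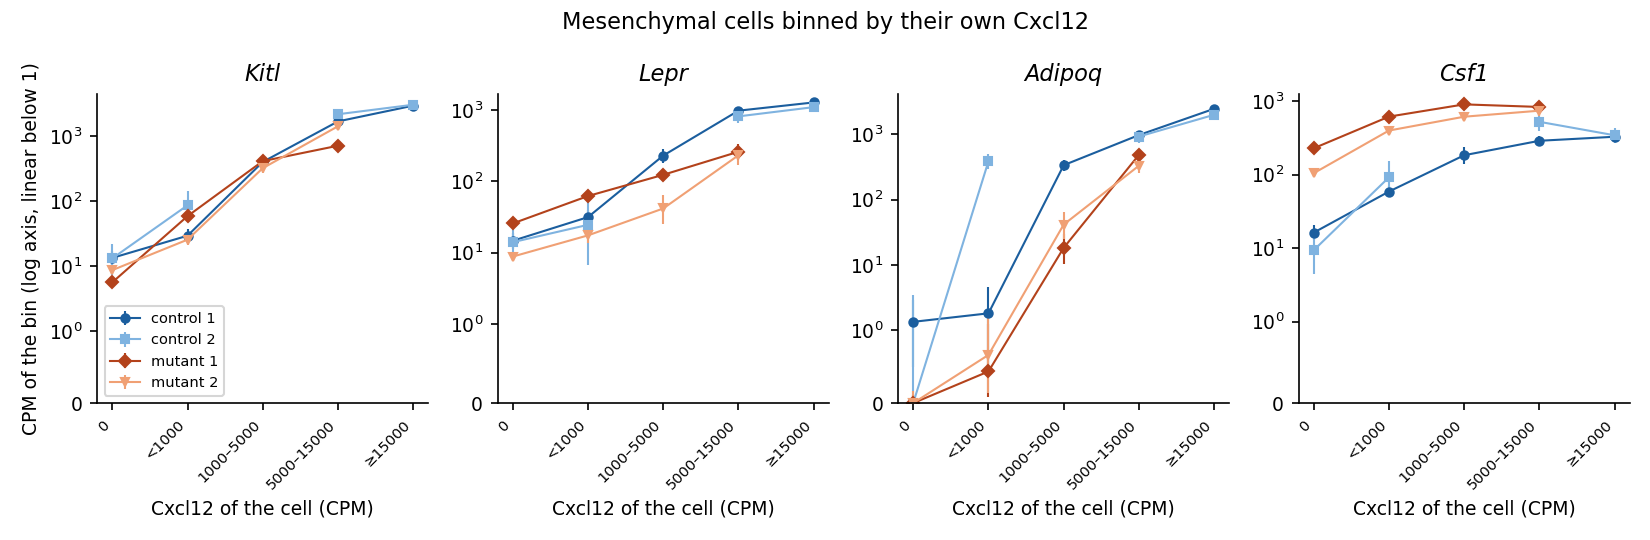
Kitl, Lepr, Adipoq and Csf1 in mesenchymal cells binned by the Cxcl12 of the cell, in CPM of each bin on a log axis that is linear below 1; lines are libraries, bars exact 95% Poisson intervals, and bins of under 10 cells are left out. At 5000 to 15000 CPM of Cxcl12 both mutants lie below both controls for Kitl, Lepr and Adipoq and above them for Csf1.

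The receptors were looked up in the same classes, and Kit and Ackr3 were found in classes that also hold ligand. Among the blood classes Cxcr4, the CXCL12 receptor, was highest in B-lineage cells, at 117, 86.3, 220 and 139 CPM in control 1, control 2, mutant 1 and mutant 2. Neutrophils held it at 46.3, 78.5, 48.5 and 78.1 CPM and erythroid cells at 23.2, 17.2, 27.9 and 20.4 CPM. In stromal-gate cells it was 1.84 CPM in control 1 and 0 in the other libraries. The 6 arterial cells of control 1 held 16 Cxcr4 UMIs (512 CPM), while arterial cells of the other libraries stood at 0 to 26.4 CPM. Ackr3, the scavenging receptor, was found in bone cells at 9.28 and 24.6 CPM in controls, against 57.6 and 52.9 CPM in mutants, a rise of 1.87 ± 0.27 log2 units (edgeR adjusted p = 7.10e-10) that lost its call without 1 of the libraries (highest adjusted p = 0.161). Kit, the KITL receptor, was 21.4, 31.0, 5.86 and 17.3 CPM in erythroid cells and near 29 CPM in endothelial cells of each library (28.7 to 32.6). In mesenchyme Kit fell by 1.53 ± 0.37 (0.00462), and passed in 0 of the 4 fits without 1 library.

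Of the 10 genes for enzymes that cut CXCL12 or release KITL, 6 were tested in mesenchyme. The gelatinase and collagenase genes Mmp2 and Mmp14 rose by 1.09 ± 0.17 and 0.91 ± 0.17 log2 units (edgeR adjusted p = 0.000147 and 0.000722), Mmp9 fell by 1.37 ± 0.28 (0.00133), and Ctsk, Adam10 and Adam17 did not pass. That is 3 of 6, where 31.5% of all genes were called, and Mmp2 and Mmp14 passed in 0 and Mmp9 in 1 of the 4 fits without 1 library. The median of the 6 was 0.26, against -0.00081 over all genes tested. Over all cells of the stromal gate the same 3 of 6 passed, where 33.7% of genes were called. Mmp2 and Mmp14 rose there by 2.385 ± 0.21 and 1.195 ± 0.22 (edgeR adjusted p = 1.59e-05 and 0.00152), and Mmp9 fell by 0.855 ± 0.22 (0.0126). Of these calls only that of Mmp2 did not depend on a single library. Without 1 library the difference ran from 0.93 to 1.48 for Mmp14 and from -1.62 to -0.36 for Mmp9. In bone cells Mmp14 alone of 6 passed, at 0.70 ± 0.22 (0.0115), near the 21.9% called over all genes, and in 0 of the 4 fits without 1 library. Dpp4, Ctsg, Elane and Cma1 were too low for the test in mesenchyme.

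Of 4 genes for factors known to act on these ligands, 3 were lower in mutant mesenchyme. Ebf3, which is also a marker of the stromal gate, fell by 4.15 ± 0.20 log2 units (edgeR adjusted p = 2.32e-10), Foxc1 fell by 1.83 ± 0.22 (8.69e-06) and Ebf1 fell by 1.42 ± 0.17 (1.04e-05), while Hif1a did not pass (-0.46 ± 0.18, 0.0598). Over all genes 15.6% were called lower. Of these 3 calls that of Ebf3 passed in each of the 4 fits without 1 library, that of Foxc1 in 2 and that of Ebf1 in 1. FOXC1 and EBF proteins maintain the stromal cells that make CXCL12 and KITL. The median of the 4 genes was -1.62. Over all cells of the stromal gate all 4 were lower, where 33.7% of genes were called and 1794 of 10970 were called lower. Hif1a fell there by 0.81 ± 0.20 (edgeR adjusted p = 0.0101). Of these calls only that of Ebf3 did not depend on a single library. Without 1 library the difference ran from -0.89 to -0.68 for Hif1a, -1.63 to -1.07 for Foxc1 and -1.37 to -1.15 for Ebf1. In bone cells Ebf1 rose by 0.72 ± 0.23 (0.0123), a call that passed in 0 of the fits without 1 library, and the other 3 did not pass.

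The other secreted or surface factors of the niche mostly fell with Cxcl12 and Kitl in mesenchyme. Of 16 such genes 15 were tested, 11 were lower, 3 were higher and 1, Fgf7, did not pass, with a median of -2.44 log2 units. Over all genes 31.5% were called and 15.6% were called lower. The lymphoid cytokine Il7 fell by 6.996 ± 0.33 (edgeR adjusted p = 2.11e-10), the adhesion molecule Vcam1 fell by 7.02 ± 0.46 (6.00e-09) and the growth factor Igf1 fell by 6.01 ± 0.21 (1.52e-11). These falls were larger than that of Cxcl12 in the estimate, a difference that was not tested. Spp1, Csf1 and Tgfb1 rose by 1.71, 1.12 and 0.90. Of the 14 calls, 7 passed in each of the 4 fits without 1 library, namely those of Il7, Igf1, Angpt1, Vcam1, Ptn, Il15 and Cxcl14, and the 3 rises passed in 0 of them.

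Over all cells of the stromal gate, whose make-up also differed, 10 of 15 tested genes of this list were lower and 3 higher. In that fit 33.7% of all genes were called. Spp1, Csf1 and Tgfb1 rose there by 3.45, 1.24 and 2.03. In the fits without 1 library Spp1 rose by 2.27 to 4.46, Csf1 by 0.84 to 1.58 and Tgfb1 by 1.52 to 2.23. The calls of Spp1 and Csf1, unlike that of Tgfb1, depended on single libraries. In bone cells, where Cxcl12 and Kitl did not pass, the same list moved both ways. Of 12 tested genes 4 were higher and 3 lower, with a median of 0.061, where 21.9% of all genes were called. Fgf7 rose by 3.87 ± 0.34 (edgeR adjusted p = 8.54e-27), Csf1 rose by 3.00 ± 0.27 (9.74e-27), and Bmp4 and Spp1 by 1.63 and 0.79. Igf1 fell by 4.35 ± 0.53 (1.96e-14), Ptn, a heparin-binding growth factor, fell by 3.32 ± 0.24 (3.53e-39) and Vcam1 fell by 2.85 ± 0.70 (0.000605). The calls of Fgf7 and Ptn passed in each of the 4 fits without 1 library, those of Csf1, Igf1 and Bmp4 in 3, that of Vcam1 in 1 and that of Spp1 in 0.

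Genes with the pattern most like Cxcl12 were sought over 34 sums of a class in a library, among 9788 genes outside the gate lists. By Pearson's r of log2(CPM + 1), Kitl came first with r = 0.968, followed by Vegfc (0.963), which encodes a growth factor of lymphatic and venous endothelium, Tln2 (0.954), Tmem178 (0.946) and Msx1 (0.941). For Kitl the order was Synpo (0.976), Vegfc (0.9745), Fbln5 (0.971), Il17rd (0.969) and Kazn (0.968), with Cxcl12 in place 6. The sums share libraries, and stromal against other cells makes most of the range, so the values are a description.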

How the data were processed

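The authors deposited integer UMI counts for each gene in each barcode, not normalized. Their processing notes name mm10 and Cell Ranger 5.0.1 (control 1, mutant 1) or 6.1.2 (control 2, mutant 2). These versions are the processing batches used here, although most matrix headers name another version. By the headers mutant 1 stands apart from the other libraries, so they do not give this pairing. Replicate numbers only name libraries. Kept cells of any 2 libraries shared 2 to 10 barcodes. Cells that passed gates of more than 1 compartment (mesenchyme, endothelium, blood, other) were set aside as mixed, in place of doublet removal, except in the wide endothelial class, which keeps cells of a stromal or mural gate. Counts were summed per class and library, CPM are counts scaled to 1000000 of that sum, and classes with at least 20 cells in each library were tested with edgeR 4.0.16 (TMM, filterByExpr, quasi-likelihood test, Benjamini-Hochberg threshold 0.05). Genotype fits had batch and genotype as terms and 1 residual degree of freedom, so that their p-values lean on the spread shared across genes. That shared spread had a weight of 15.4 degrees of freedom in mesenchyme, 10.15 in the stromal gate and 37.24 in the wide endothelial class. In bone the weight was infinite, so the bone p-values take no account of a gene's own spread between libraries. Between-class fits had library and class as terms; the arterial fit, also added after seeing the data, needed 5 arterial cells in a library. Intervals are exact (Clopper-Pearson for shares, Poisson for counts) at 95%, and limits for 0 rest on 3 UMIs or cells. The scripts were tested on simulated counts. Alternatives are named with their effects in the closing section. Cxcl12, Kitl and the gene lists were chosen with earlier results of these data known, and the genes named are the list members and the 5 most like each ligand. No protein sequence was used here.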

Additional observations from a re-analysis of the deposited data

Results flagged for a closer look

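The genotype difference of Cxcl12 in bone cells minus that in endothelial cells was 1.84 log2 units in an interaction test over both classes, which is why it is listed here (edgeR adjusted p = 0.00192). Bone cells gave 37.3 and 20.1 CPM in controls, against 31.5 and 35.3 CPM in mutants, and endothelial cells 398 and 36.6 CPM in controls, against 82.5 and 28.4 CPM in mutants. In control 1 a single endothelial cell held 48 of the 61 UMIs. Without that cell and its counterparts in the other libraries the value was 1.61 (adjusted p = 0.026), and without control 1 it was 0.46 (0.918). With 2 libraries per genotype no group was large enough for a check of single outlying libraries.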

How the results depend on the processing

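The falls of Cxcl12 and Kitl in mesenchyme (-4.76 to -6.07 and -4.19 to -5.30 over 13 alternatives) and in stromal-gate cells (-2.01 to -3.79 and -1.82 to -3.48 over 12) passed in each alternative run, as did the excess of stromal over bone and endothelial cells and of arterial over sinusoidal cells. Fits without 1 library lack the batch term and assume that a lone library varies like the other group; the between-class fits of controls could not be run without a control. The labels give no replicate numbers, but the batch term sets 1 control beside 1 mutant and so pairs the libraries by processing batch. Without it the mesenchymal difference was -5.56 for Cxcl12 (edgeR adjusted p = 0.00329) and -4.85 for Kitl (0.00274). The genes called were then 2036 in mesenchyme and 918 in bone. With DESeq2 2612 and 992 were called, and without 1 library 541 to 1773 and 63 to 1243. The cause of the changes below was not tested.

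In bone Cxcl12 turned positive with DESeq2 (0.031), without a filter on low counts (0.025), with a gate at 5 UMIs from 3 markers (0.32), with markers at 0.05% of UMIs (0.37) and at no more than 5% mitochondrial UMIs (0.013), and ran from -0.43 to 0.70 without 1 library, never past the threshold. In endothelial cells the Cxcl12 call was lost with DESeq2 (-1.22), without the batch term (-1.94), with the 5-UMI gate (-0.96) and from 2000 UMIs per cell (-0.14), and ran from -3.14 to 0.29 without 1 library. Endothelial Kitl passed with the 5-UMI gate (0.85), markers at 0.05% (0.83), from 2000 UMIs (0.79), at 5% mitochondrial UMIs (0.84) and without the top doublet scores (0.81), and ran from -0.10 to 1.91 without 1 library. The bone minus endothelial effect of Cxcl12 was lost with DESeq2 (1.47) and from 2000 UMIs (0.15), with 0.46 to 2.67 without 1 library, and that of Kitl ran from -2.10 to -0.19. Among controls, bone minus endothelial Cxcl12 passed without a filter (-1.41), with the 5-UMI gate (-1.65) and for bone cells with no stromal UMI (-2.36), and Kitl did not pass with DESeq2 (-1.57) or markers at 0.05% (-1.51). The share differences of mesenchymal cells ran from -39.8 to -69.8 points for Cxcl12 and -34.9 to -62.0 for Kitl. Depth limits the endothelial values, which rest on 23 to 228 Cxcl12 UMIs in a library, and the bone values of control 2, which rest on 18 Cxcl12 and 13 Kitl UMIs.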

Other observations

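Cells that passed both a mesenchymal and a blood gate entered no class and held a further part of the Cxcl12. In control 1 there were 153 such cells with 12531 Cxcl12 UMIs, and in mutant 2 there were 308 with 488. Mesenchymal cells outside the stromal, bone and chondrocyte classes held Cxcl12 at 83.6 and 37.6 CPM and Kitl at 22.1 and 6.96 CPM in mutant 1 and mutant 2. Chondrocyte-gated cells, 6 to 17 in a library, held 0 Kitl UMIs in each library and 0 to 2 Cxcl12 UMIs.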
